A study of Mus musculus with 12 samples.

Results

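The comparison was between mouse bone marrow cells that carried a truncated Runx1 and cells that carried the same Runx1 together with a knockout of miR-146a. It took in 6 of the 12 RNA-seq libraries of the study, chosen by the genotype that the deposited sample table gives each column, and all genes in the count table. The 3 libraries labelled double (A001, A031 and A051) had the genotype miR-146aKO/Runx1S291fsX300, and the 3 Runx1 mutant libraries (A021, A042 and A058) had the genotype Runx1S291fsX300 with miR-146a intact. Both groups thus share the Runx1 mutation. In both, the cells came from the marrow of secondary recipient mice and were the GFP-positive fraction that lacked lineage markers and bore Kit and Sca-1 (LSK cells), which holds the blood stem cells and early progenitors. The other 6 libraries, 3 miR-146aKO and 3 wildtype for both genes, entered the fit and the test of whether the miR-146a effect differed between the 2 Runx1 backgrounds. Their sample titles read Mir-146 KO/Empty and Empty, in that order. Ages, recipient strain and the number of animals behind a library were not given in the labels, so p-values measure the spread between libraries, which may be partly technical. The cells had passed into a second host and are not steady-state marrow, and their RNA was amplified before library preparation.

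RUNX1 is a DNA-binding transcription factor of blood stem cells, and frameshift mutations that remove its C-terminal part occur in myelodysplasia and acute myeloid leukemia. The microRNA miR-146a is a brake on innate immune signalling: NF-kB induces it, and it represses TRAF6 and IRAK1, the adaptor and kinase that carry signals from Toll-like and IL-1 receptors to NF-kB. Its loss in mice is known for myeloid expansion and, with age, marrow failure and malignancy.

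The mature miR-146a-5p lies at chr11:43374435-43374456 on the minus strand and its relative miR-146b-5p at chr19:46342790-46342811 on the plus strand (RefSeq, GRCm38.p6). The capitals below mark the seed, bases 2 to 8, which pairs with target messages and is the same in both, so that sites of the deleted microRNA are also sites of the one left in place.
miR-146a-5p: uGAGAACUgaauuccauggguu
miR-146b-5p: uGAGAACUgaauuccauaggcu
Sites shown next are from the 3′ UTRs (untranslated regions) of the pathway genes named above, with the match to the seed, AGTTCTC, in capitals. Traf6 held 4 matches, all followed by an A, and the first is at chr2:101697943-101697968 on the plus strand. Irak1 held 2 matches, at chrX:74015391-74015416 and chrX:74015375-74015400 on the minus strand. Axl, a receptor of the macrophage list described further on, held 1 match at chr7:25758418-25758443 on the minus strand. Coordinates of the sites are from the GENCODE M21 annotation of GRCm38.
Traf6 site: taccgctctggtgttgAGTTCTCatt
Irak1 site 1: cagactcagaggtcaaAGTTCTCatg
Irak1 site 2: agttctcatgcttggaAGTTCTCata
Axl site: tgagtttagagttcaaAGTTCTCaaa

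Total counts ran from 5417624 to 7026393 in the Runx1 mutant libraries and from 4907029 to 6522388 in those labelled double (two-sided exact permutation p = 0.2, the smallest this design allows being 0.1). Of 24421 gene symbols, 12744 passed the filter on low counts and were tested. The ribosomal precursor Rn45s took 4.77% to 17.8% of the counts. The microRNA's own gene, Mir146 (chr11:43374397-43374461), was at 0 counts in 5 of the 6 libraries, and in A031, a library labelled double, it had 14 counts. That goes against the label of A031, though whether those counts came from the knockout cells or from other cells in the library was not tested. The medians of the gene lists are given without A031 where they moved by over 1.5 times or changed sign. A count of 0 checks nothing here, since the 3 wildtype libraries were also at 0, and Mir146b was at 0 in all 12. Y-linked genes summed to 147, 170 and 26.2 CPM in A021, A042 and A058 and to 13.8, 214 and 135 CPM in A001, A031 and A051, so both groups mixed libraries high and low in Y-linked RNA. CPM, the unit of all levels here, are counts relative to library size after TMM scaling. Across genes, A042 correlated better with the wildtype library A015 (Spearman 0.905) than with the other Runx1 mutant libraries (0.849 and 0.847). The libraries labelled double correlated with each other at 0.803 to 0.805. Each of them correlated better with a Runx1 mutant library, A001 with A021 (0.883), A031 with A042 (0.864) and A051 with A021 (0.814). Kit, the receptor for stem cell factor used in the sort, was at 113, 711 and 101 CPM in A021, A042 and A058 and at 178, 219 and 164 CPM in A001, A031 and A051. Ly6a, which encodes Sca-1, was at 20.4, 222 and 172 CPM against 18.6, 121 and 12.1 CPM. Both sort markers were thus present in all 6 libraries, with the groups overlapping.

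No gene passed the threshold when edgeR's quasi-likelihood test was adjusted over all 12744 genes by Benjamini-Hochberg (0 higher, 0 lower, smallest adjusted p = 0.763). At an unadjusted p under 0.05 there were 590 genes (4.63%), of which 367 (2.88%) were on the higher and 223 (1.75%) on the lower side in the libraries labelled double. All 3 of those libraries lay above all 3 Runx1 mutant libraries for 491 genes (3.85%) and below them for 691 (5.42%), and 6418 genes (50.4%) were on the higher side. The median log2 fold change over all tested genes was 0.01. The count of calls depended on the method: DESeq2 called 79 genes, 71 higher (0.564%) and 8 lower (0.0635%), and edgeR run without the low-count filter called 129 higher and 15 lower. All 79 DESeq2 calls were on the same side in edgeR and at an unadjusted p under 0.05 there, and 7 of them had counts in only 1 of the 6 libraries. The limma-voom fit with quality weights called 0 (304 genes higher and 189 lower at an unadjusted p under 0.05).

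Genes of tissue-resident macrophages made up the group that lay highest in the libraries labelled double. The list was chosen with earlier results of these data known, so its counts are a description. It had 27 members, 25 were tested, and all 25 were on the higher side with a median log2 fold change of 5.14. At an unadjusted p under 0.05 there were 20 (against 2.88% of all genes), and in 14 (against 3.85%) the 2 groups of libraries did not overlap. By the edgeR test 0 were called. DESeq2 called 12 of them (against 0.564% of all genes called higher), and edgeR without the filter 19 of 27 (against 144 of 19210 genes, either direction). The mean log2 CPM of the list was 1.83, 1.12 and 2.05 in A021, A042 and A058 and 4.31, 5.15 and 8.0 in A001, A031 and A051, so that A051 stood well above the other libraries and A001 closest to the Runx1 mutants. Summed over the members, the list came to between 166 and 456 CPM in the Runx1 mutant libraries and to between 1294 and 12887 CPM in those labelled double. Without A031 the count at an unadjusted p under 0.05 was 21, without A051 it was 11 with a median of 3.01, and without both A031 and A042 it was 18. Since these were bulk samples, more macrophages in the sorted fraction and more macrophage RNA per cell cannot be told apart.

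**Figure D1:**
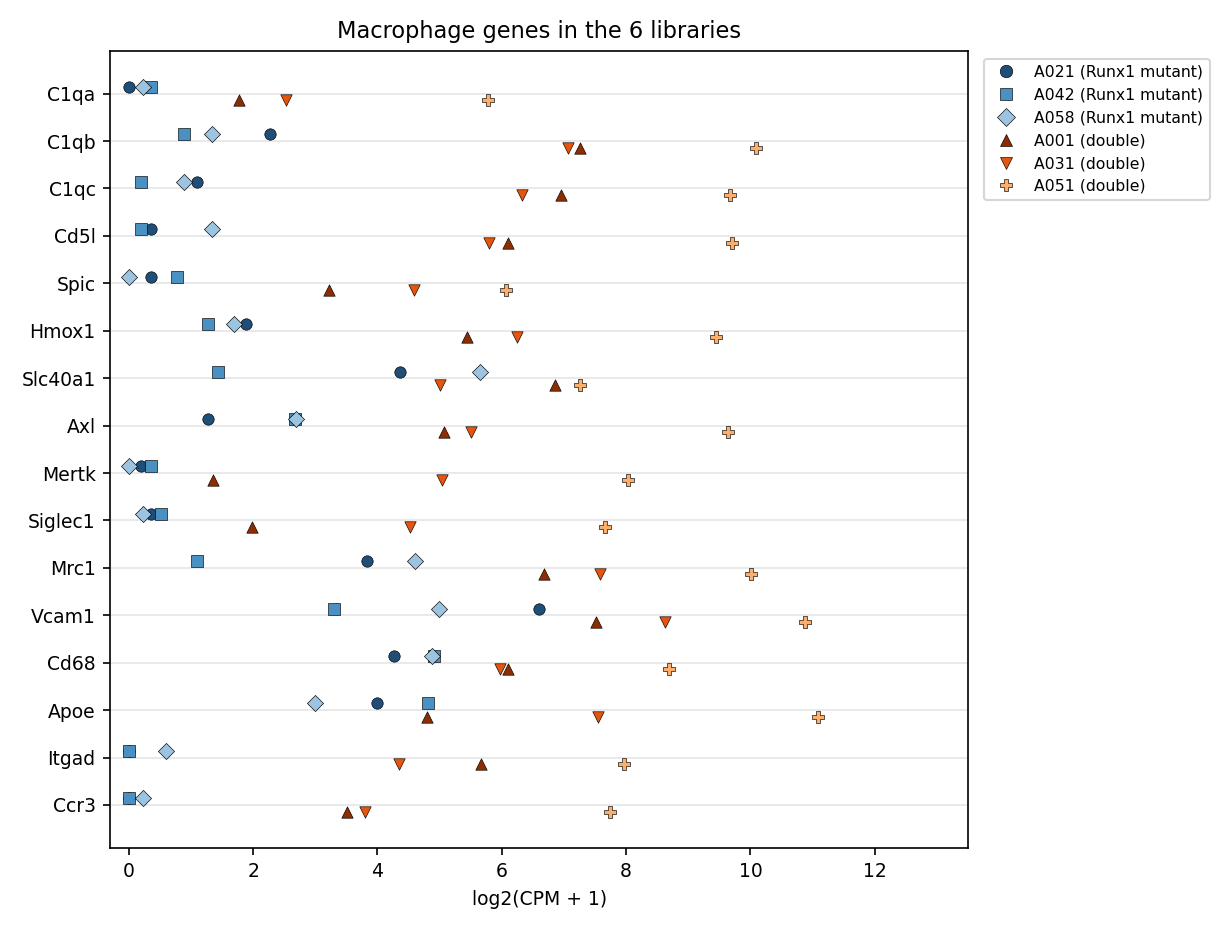
Macrophage genes in the 6 libraries. The horizontal axis is log2(CPM + 1), each point is 1 library, blue for Runx1 mutant and orange to brown for the libraries labelled double (miR-146aKO/Runx1S291fsX300, double in the legends); no means or error bars are drawn. The 3 libraries labelled double lie to the right for C1qb, C1qc and Cd5l, with A051 highest, whereas Slc40a1 and Apoe overlap.

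The 3 chains of complement C1q, the opening protein of the classical complement pathway that resident macrophages secrete, lie side by side on chromosome 4. C1qb (chr4:136880129-136886187, minus strand) was at 3.83, 0.854 and 1.54 CPM in A021, A042 and A058 and at 152, 132 and 1085 CPM in A001, A031 and A051. Its log2 fold change was 7.76 ± 1.78 (SE, n = 3 and 3), with an edgeR adjusted p of 0.763. C1qc was at 1.14, 0.142 and 0.855 CPM against 123, 79.2 and 818 CPM. C1qa gave fewer counts, 0, 0.284 and 0.171 CPM against 2.41, 4.8 and 53.8 CPM. In all 3 genes every library labelled double was above every Runx1 mutant library, and A051 was the highest.

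Spic, the transcription factor that red pulp and marrow macrophages need to form, was at 0.284, 0.711 and 0 CPM in the Runx1 mutants and at 8.27, 22.9 and 66.4 CPM in A001, A031 and A051 (log2 fold change 6.48 ± 1.42). Hmox1, the heme oxygenase those cells use on heme from engulfed red cells, was at 2.70, 1.42 and 2.22 CPM against 42.6, 75.0 and 700 CPM (7.0 ± 1.68). Slc40a1, the ferroportin that exports the iron, was at 19.6, 1.71 and 48.9 CPM against 115, 31.3 and 153 CPM (2.09 ± 1.38). The transcription factor and the heme enzyme separated the groups, while the iron exporter overlapped through A031.

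Cd5l, a secreted protein of resident macrophages also known as AIM, was at 0.284, 0.142 and 1.54 CPM against 67.5, 54.7 and 830 CPM (8.93 ± 2.10). The receptors for dying cells Axl and Mertk were also among those without overlap. Axl was at 1.42, 5.41 and 5.47 CPM against 32.7, 44.2 and 799 CPM (6.15 ± 1.54). Mertk was at 0.142, 0.284 and 0 CPM against 1.55, 31.8 and 261 CPM, the level in A001 resting on few counts. Timd4, another receptor for dying cells, was at 6.81, 0 and 1.37 CPM against 1.38, 3.38 and 15.3 CPM, and its fitted difference changed sign without A051 (from 1.27 to -0.20).

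Among surface proteins, the mannose receptor Mrc1 was at 13.2, 1.14 and 23.3 CPM against 101, 190 and 1031 CPM. The adhesion molecule Vcam1 was at 95.5, 8.82 and 30.6 CPM against 181, 393 and 1889 CPM, and reads of its exons shared with an opposite-strand gene could not be told apart in these unstranded libraries. Siglec1, the sialoadhesin of marrow macrophages, was at 0.284, 0.427 and 0.171 CPM against 2.93, 22.03 and 201 CPM. All 3 were without overlap, with the order A001, A031, A051 from lowest to highest in each. Vsig4, the complement receptor of liver and peritoneal macrophages, was at 0 CPM in A001, at 10.3 CPM in A031 and at 103 CPM in A051, against at most 0.284 CPM in the Runx1 mutants. Adgre1, which encodes F4/80, was at 3.12, 1.28 and 13.3 CPM against 10.7, 8.88 and 57.7 CPM. Apoe was at 14.9, 27.2 and 7.01 CPM against 26.7, 185 and 2183 CPM. These last 3 genes overlapped between the groups through A001, and Adgre1 also through A031. Of the 2 untested members, Marco had 1 count in A042 and 1 in A051, and Ccl24 had 3, 5 and 38 counts in A042, A058 and A051.

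Cd68, a lysosomal protein of phagocytes, was at 18.2, 29.2 and 28.4 CPM against 67.5, 61.8 and 411 CPM (2.83 ± 0.84). Outside the macrophage list, genes of the smallest unadjusted p included Itgad, an integrin chain of splenic red pulp macrophages, at 0, 0 and 0.513 CPM against 49.8, 19.4 and 250 CPM. The exons of Itgad overlap those of Cox6a2, so its reads could not all be assigned. The chemokine receptor gene Ccr3 was at 0, 0 and 0.171 CPM against 10.3, 12.97 and 213 CPM. Crip2 was at 0, 0.142 and 0 CPM against 11.5, 3.73 and 73.2 CPM, and the potassium channel gene Kcna2 was at 0.284, 0 and 0.171 CPM against 11.4, 9.06 and 49.7 CPM. In each of these 4 genes the Runx1 mutant libraries were at or near 0.

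The miR-146a effect could be set beside the one without the Runx1 mutation, since the miR-146aKO and wildtype libraries are other samples. The macrophage list stood at 3.00, 8.61 and 8.14 in the miR-146aKO libraries A047, A150 and A151 and at 1.62, 4.01 and 1.20 in the wildtype libraries A015, A040 and A053, in mean log2 CPM. The test of the difference between the 2 effects (interaction) gave a list median of 0.21 on the log2 scale, with 1 member higher and 3 lower at an unadjusted p under 0.05 (4.43% and 5.04% of all genes). For C1qb the interaction was 1.90 ± 1.93 and for Spic -0.69 ± 1.91. The data did not resolve a difference in macrophage genes between the Runx1 backgrounds, at standard errors of this size.

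Other genes were named by their rank (a mean log2 CPM of at least 3 over the 6 libraries, no overlap, smallest unadjusted p). Lpl, lipoprotein lipase, was at 6.24, 0.284 and 1.71 CPM against 27.2, 103 and 199 CPM (5.30 ± 1.49). Igf1, insulin-like growth factor, was at 8.51, 4.41 and 0.513 CPM against 27.9, 172 and 121 CPM (4.56 ± 1.27). The neural cell adhesion molecule gene Ncam1 was at 27.5, 0.854 and 8.38 CPM against 153, 109 and 120 CPM (3.37 ± 0.97). Ncam1 differed from the macrophage genes in that A051 did not stand apart. Aplp2, a relative of the amyloid precursor protein, was at 17.7, 39.3 and 12.5 CPM against 69.3, 119 and 157 CPM (2.31 ± 0.58). Gm2a, the lysosomal activator of ganglioside breakdown, was at 45.7, 57.3 and 48.9 CPM against 115, 113 and 193 CPM (1.47 ± 0.41). Gm2a had the narrower spread within each group, and neither gene overlapped. The heparan sulfate proteoglycan Sdc3 was at 5.68, 0.142 and 4.28 CPM against 29.6, 22.9 and 261 CPM, Frmd4b at 0.993, 4.98 and 2.22 CPM against 14.1, 20.8 and 240 CPM, and the semaphorin and VEGF co-receptor Nrp1 at 2.13, 1.14 and 7.36 CPM against 8.10, 9.24 and 132 CPM, each again with A051 highest.

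Monocyte and lysosome genes were less separated than the resident macrophage list. Of 24 monocyte and phagocyte genes 19 were on the higher side, 4 of them at an unadjusted p under 0.05 (against 2.88% of all genes), with a median of 1.15 that was 0.42 without A051 and 0.67 without A042. Ly6c2, a surface protein of inflammatory monocytes with near-identical relatives, was at 435, 10.8 and 207 CPM against 1526, 1033 and 1264 CPM (2.55 ± 1.15). Klf4, a transcription factor of monocytes, was at 1.84, 11.4 and 11.5 CPM against 37.4, 38.0 and 39.8 CPM (2.22 ± 0.92). The lectin Lgals3 was at 18.9, 2.99 and 13.7 CPM against 109, 27.9 and 114 CPM. In these 3 genes the groups did not overlap, and the 3 libraries labelled double lay close together for Ly6c2 and Klf4. Of 23 cathepsin and lysosome genes, 18 were on the higher side and 6 at an unadjusted p under 0.05 (against 2.88% of all genes; median 1.06, 0.25 without A051). The protease Ctsh was at 33.6, 1.56 and 8.21 CPM against 97.9, 55.1 and 232 CPM (3.14 ± 1.08), and Ctse at 136, 53.4 and 127 CPM against 318, 668 and 667 CPM (2.39 ± 0.96). Ctsd was at 275, 467 and 217 CPM against 584, 307 and 3337 CPM and overlapped through A031.

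**Figure D2:**
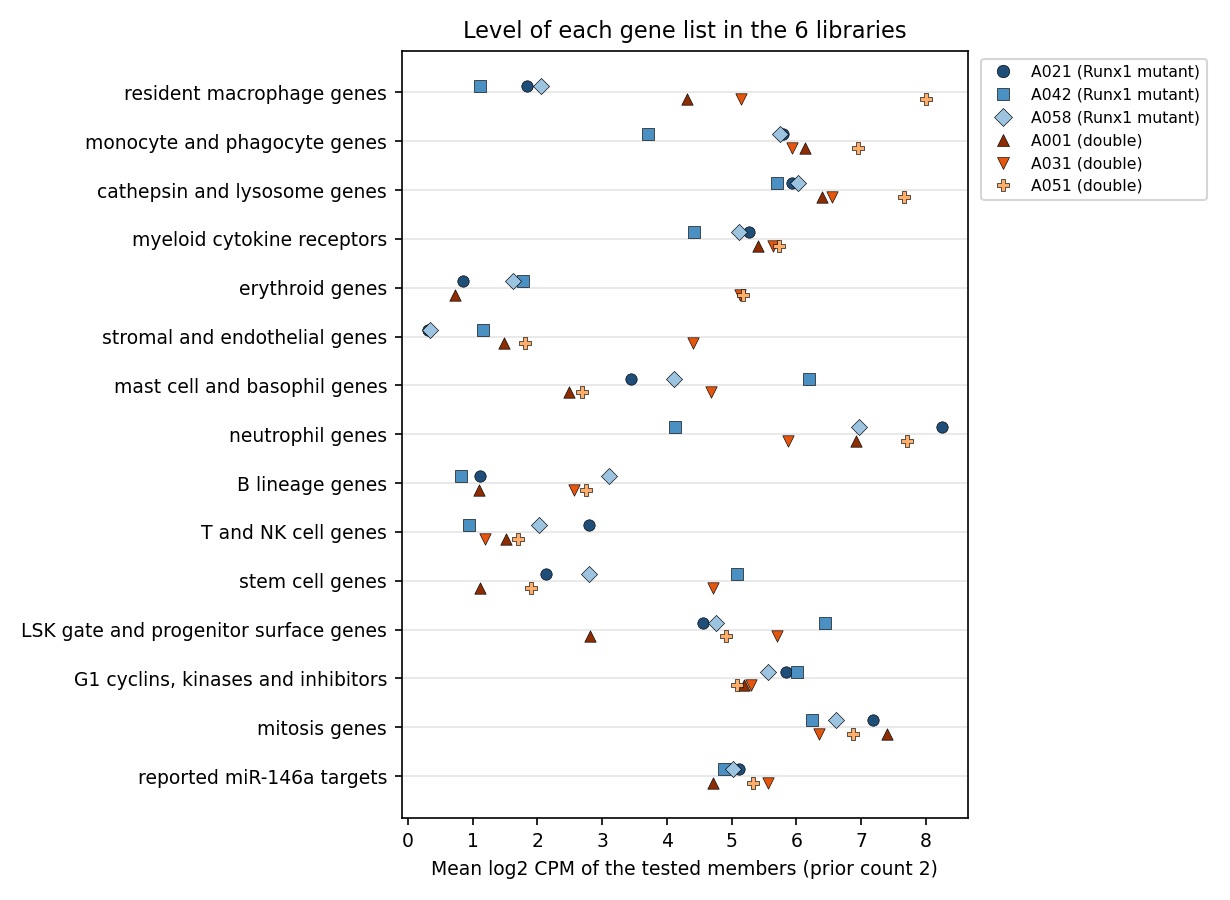
Level of 15 of the 41 gene lists in the 6 libraries. The horizontal axis is the mean log2 CPM of the tested members (prior count 2), each point is 1 library, and no error bars are drawn. The libraries labelled double lie above all Runx1 mutant libraries for the macrophage, monocyte, lysosome, cytokine receptor and stromal lists and below them for the G1 list. Of all 41 lists, only these 5 lay above and only this 1 below. The cytokine receptor list had a median log2 fold change of 0.20, or -0.02 without A001. Of its 17 tested members 1 was higher at an unadjusted p under 0.05 (against 2.88% of all genes).

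Erythroid genes were high in A031 and A051 but not in A001. Of 34 listed genes 28 were tested, 25 were on the higher side (median 3.96), 14 were at an unadjusted p under 0.05 (against 2.88% of all genes) and 3 were without overlap (against 3.85%). Without A031 the median was 2.59, with 23 on the higher side and 11 at an unadjusted p under 0.05. The list's mean log2 CPM was 0.85, 1.78 and 1.63 in A021, A042 and A058 and 0.72, 5.13 and 5.18 in A001, A031 and A051. Car1, carbonic anhydrase of early erythroid cells, was at 0.426, 0 and 0.684 CPM against 0.172, 579 and 628 CPM. Klf1, the master transcription factor of the lineage, was at 0, 0.711 and 0.171 CPM against 0, 21.9 and 42.9 CPM. In both genes A001 was at the level of the Runx1 mutants. The red cell surface protein Ermap was also low in A001 and high in the other libraries of its group, at 0.172, 119 and 90.9 CPM in A001, A031 and A051. Alas2, the enzyme that starts heme synthesis in red cells, was at 0.568, 1.28 and 0.513 CPM against 0.172, 32.0 and 17.9 CPM. The alpha and beta globin genes of the list were at 0 counts in every library. That does not show absent RNA, since the ribosomal protein gene Rpl26 and the oxidative phosphorylation gene Ndufs5 were also at 0 throughout. Why these genes had no counts was not tested. Tfrc, the transferrin receptor that all dividing cells use, was at 122, 26.3 and 131 CPM against 329, 90.3 and 150 CPM, and Fech, which inserts iron into heme, at 24.1, 18.9 and 32.5 CPM against 41.0, 62.7 and 48.7 CPM.

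Stromal and endothelial genes were highest in A031, with a mean log2 CPM of 0.30, 1.16 and 0.34 in the Runx1 mutants and 1.48, 4.40 and 1.81 in A001, A031 and A051. Of 23 listed, 19 were tested, 15 were on the higher side and 10 were at an unadjusted p under 0.05 (against 2.88% of all genes; median 4.8, or 4.33 with genes at 0 in a whole group set to the bound that 3 counts give). Without A031 the median was 0.22, with 11 of 20 on the higher side and 6 at an unadjusted p under 0.05. Cxcl12, the chemokine of marrow reticular cells, was at 468 CPM in A031 and at most 0.711 CPM in the other 5 libraries. Lepr, the leptin receptor that marks those cells, was at 103 CPM in A031 and at most 0.342 CPM elsewhere. Sparc, a matrix protein, was at 153 CPM in A031 and 4.13 CPM in A001, and Bgn, a matrix proteoglycan, at 399 CPM in A031 and 10.5 CPM or less elsewhere. A031 was also the library with Mir146 counts. A differing case was Fabp4, the fatty acid binding protein of fat cells, endothelium and some macrophages, at 0.284, 0.142 and 0.342 CPM in the Runx1 mutants and 47.5, 203 and 20.4 CPM in A001, A031 and A051 (8.35 ± 1.85). Stab2, a scavenger receptor of sinusoid endothelium, was at 0.142, 0.854 and 0.171 CPM against 2.24, 1.95 and 95.3 CPM. Pecam1, which blood cells also express, and Cdh5, the cadherin of endothelium, overlapped, Cdh5 being at 5.0 CPM or less in all 6 libraries. The part of these cell types in the fold changes of other genes was not tested.

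**Figure D3:**
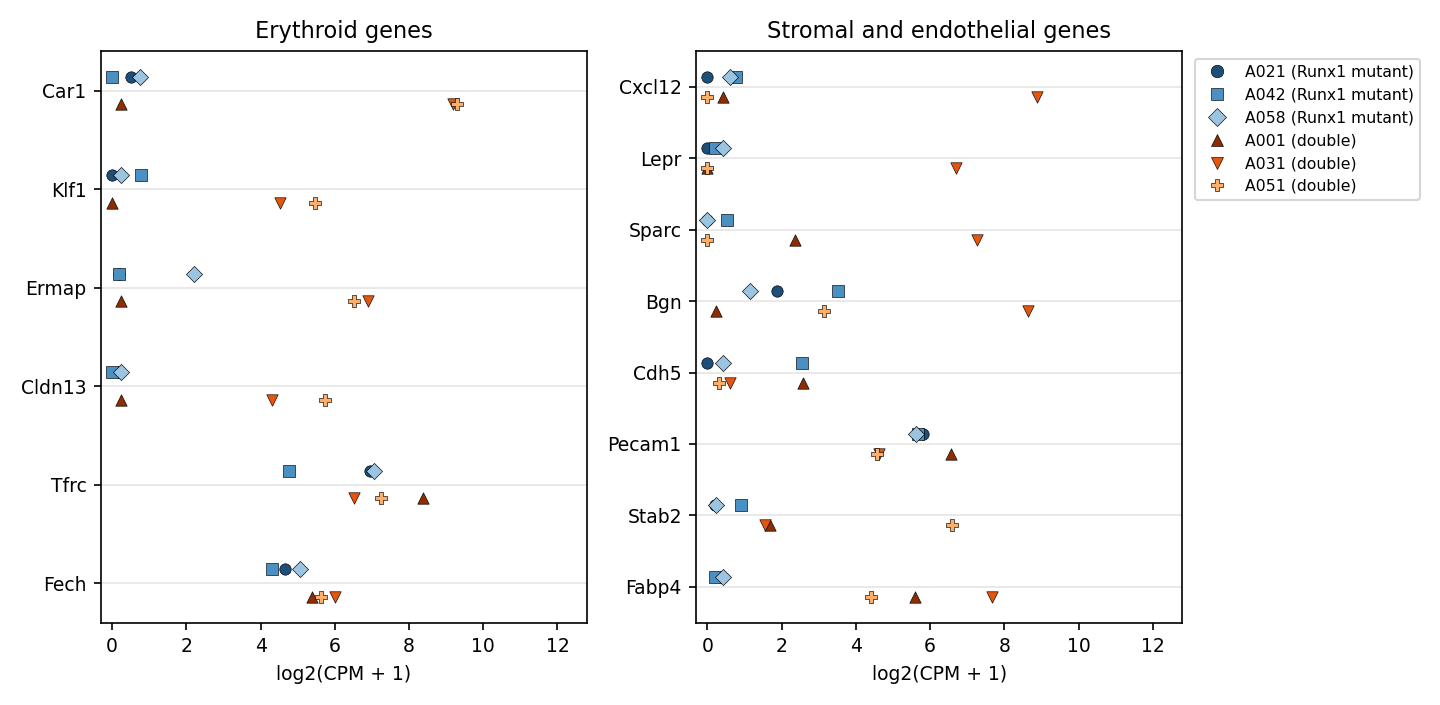
Erythroid genes (left) and stromal and endothelial genes (right) in the 6 libraries. The horizontal axes are log2(CPM + 1), each point is 1 library and no error bars are drawn. Car1, Klf1 and Cldn13 lie far to the right in A031 and A051 with A001 beside the Runx1 mutants, and Cxcl12 and Lepr lie to the right in A031 only.

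Promoters were read for the macrophage and erythroid lists and the named genes. RefSeq promoter windows, from 250 bases before to 50 after the annotated start, were found for 9727 of the 12744 tested genes (76.3%), including 17 macrophage and 19 erythroid genes. GAGGAA, the core that PU.1 binds, was in 11 of the 17 macrophage promoters (64.7%) against 27.2% of all 9727, in 7 of 19 erythroid ones (36.8%), in 8 of the 11 promoters found for the 14 highest-ranked genes on the higher side (72.7%) and in 0 of 10 for those on the lower side. The highest-ranked genes on the higher side include C1qb, C1qc, Cd5l and Axl of the macrophage list, each with the core in its promoter. Those 2 shares thus count some of the same promoters and are not separate observations. A longer PU.1 form, GAGGAAGT, was in 11.8% of the macrophage promoters and 3.41% of all, and AGAGGAA, which contains the core, in 35.3% and 9.79%. The GATA motif AGATAA was in 5 of 19 erythroid promoters (26.3%) against 6.53% of all and in 1 of 17 macrophage ones. RUNX motifs, TGTGGT and its variant form TGCGGT, were in 2 of 17 macrophage promoters (11.8%) and 7 of 19 erythroid ones (36.8%) against 21.5% of all. The other 3 motifs searched were as follows. The E-box CAGCTG was in 17.6% of macrophage promoters against 14.9% of all, the MAF motif TGCTGA in 29.4% against 15.2%, and the NF-kB motif in 0 of 17 against 0.278%. Both strands were read, and a match is a description of letters and not a binding site. Shown are C1qb (chr4:136886151-136886450, minus strand), Cd5l (chr3:87357631-87357930, plus strand) and the erythroid gene Epor, the erythropoietin receptor (chr9:21963527-21963826, minus strand), each with its matches to the PU.1 core, the GATA motif and the RUNX motifs, or their reverse complements, in capitals (RefSeq, GRCm38.p6).
C1qb promoter: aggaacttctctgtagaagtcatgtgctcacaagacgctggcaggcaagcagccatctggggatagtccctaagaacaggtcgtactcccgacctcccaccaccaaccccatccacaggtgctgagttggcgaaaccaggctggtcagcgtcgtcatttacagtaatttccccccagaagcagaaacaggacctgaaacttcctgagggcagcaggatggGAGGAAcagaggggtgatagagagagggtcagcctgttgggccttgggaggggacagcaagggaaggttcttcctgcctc
Cd5l promoter: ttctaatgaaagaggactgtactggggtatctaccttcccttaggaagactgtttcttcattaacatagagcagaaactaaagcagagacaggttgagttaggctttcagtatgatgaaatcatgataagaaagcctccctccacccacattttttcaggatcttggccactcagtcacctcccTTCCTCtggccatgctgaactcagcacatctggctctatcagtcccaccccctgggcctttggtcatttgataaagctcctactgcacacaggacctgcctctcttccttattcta
Epor promoter: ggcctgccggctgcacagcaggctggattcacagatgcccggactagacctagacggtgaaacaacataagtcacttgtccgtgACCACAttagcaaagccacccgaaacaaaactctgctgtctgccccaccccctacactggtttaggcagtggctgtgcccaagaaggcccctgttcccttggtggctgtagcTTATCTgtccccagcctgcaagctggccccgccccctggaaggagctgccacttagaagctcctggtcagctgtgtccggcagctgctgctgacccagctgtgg
C1qb and Cd5l thus each held 1 PU.1 core and no GATA or RUNX match, and Epor held 1 RUNX and 1 GATA match.

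Stem cell genes were not separated by group. Of 30 stem cell genes 8 were on the higher side (median -0.52), and of 17 LSK gate and progenitor surface genes 5 (median -0.57), with 0 members without overlap in either list. Both medians changed sign without A042, to 1.22 for the stem cell list and 0.81 for the LSK list, and without A031 they were -2.41 and -1.02. Slamf1, which encodes CD150, was at 4.68, 84.7 and 3.76 CPM in A021, A042 and A058 and at 0.344, 21.5 and 0.485 CPM in A001, A031 and A051. Procr, the protein C receptor of stem cells, was at 1.70, 41.3 and 0.342 CPM against 0.172, 28.6 and 0.242 CPM. Mecom, the EVI1 locus, was at 0.426, 48.1 and 1.37 CPM against 0.344, 29.0 and 0.242 CPM. In each group 1 library carried most of the stem cell RNA, A042 and A031. Cd34 was at 78.6, 622 and 74.4 CPM against 53.4, 204 and 97.5 CPM. Vwf, which platelet-biased stem cells and megakaryocytes express, was at 0.568, 8.68 and 2.40 CPM against 1.03, 66.6 and 93.1 CPM, high in A031 and A051 only. Runx1, counted over the endogenous gene and whatever of the mutant transcript maps to it, was at 200, 609 and 312 CPM against 120, 259 and 191 CPM (-0.97 ± 0.44), and it overlapped between the groups.

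Mast cell and basophil genes were on the lower side in 9 of 12 tested (median -1.72), but the sign of that median rested on A042: it was 0.58 without that library and -6.17 without A031. Cpa3, the mast cell carboxypeptidase, was at 79.7, 1419 and 70.3 CPM against 9.30, 348 and 3.88 CPM. Ms4a2, a chain of the IgE receptor, was at 6.39, 222 and 1.88 CPM against 0.172, 8.53 and 3.15 CPM, and the IL-33 receptor Il1rl1 at 6.81, 426 and 23.1 CPM against 0.172, 61.1 and 0.970 CPM. A042 was far above the rest in all 3. Hdc, which makes histamine, had the 1 difference without overlap on the lower side (against 5.42% of all genes), at 135, 265 and 348 CPM against 43.6, 53.3 and 32.7 CPM (-2.53 ± 0.88). Lmo4 was alone without overlap on the higher side (against 3.85% of all genes), at 44.6, 29.2 and 28.7 CPM against 55.6, 76.8 and 62.3 CPM.

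The 14 genes named on the lower side had log2 fold changes from -2.90 to -1.29, and the rule that picked them asked for a minimum level and no overlap. Flot1, a scaffold protein of membrane rafts (chr17:35823230-35832791, plus strand), was at 101, 140 and 109 CPM in A021, A042 and A058 and at 26.4, 41.6 and 40.7 CPM in A001, A031 and A051 (-1.69 ± 0.39, edgeR adjusted p = 0.763). Jak3, the kinase behind the common gamma chain of lymphoid cytokine receptors (chr8:71676296-71690575, plus strand), was at 55.3, 72.6 and 39.5 CPM against 12.4, 12.4 and 6.55 CPM (-2.41 ± 0.64). Its exons overlap those of Insl3. DESeq2 called both genes lower. Neither gene had a library of one group within the range of the other.

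The histone gene Hist2h2be was at 16.6, 40.7 and 35.1 CPM against 5.17, 8.88 and 3.39 CPM (-2.40 ± 0.68). The phosphatase gene Ptp4a3, also called PRL-3, was at 17.3, 83.2 and 41.1 CPM against 5.86, 12.6 and 12.6 CPM (-2.19 ± 0.63). Pcp4l1, of the PCP4 family, was at 46.4, 25.6 and 73.6 CPM against 12.6, 6.04 and 0.727 CPM (-2.90 ± 0.89). A Sin3 complex subunit gene, Brms1l, was at 22.7, 27.0 and 29.6 CPM against 4.996, 5.69 and 8.002 CPM (-2.08 ± 0.65). In these 4 genes the groups did not overlap, and Brms1l had the narrowest range within each group. The O-mannosyltransferase gene Pomt2 and the serine synthesis gene Psph share exons with Gstz1 and Cct6a on the opposite strand, and C2cd3 with Ppme1, so their counts are less certain. Pomt2 was at 23.98, 30.02 and 39.9 CPM against 6.55, 8.53 and 7.03 CPM, Psph at 62.0, 36.0 and 33.4 CPM against 10.3, 8.88 and 5.33 CPM, and the centriole gene C2cd3 at 82.4, 69.1 and 76.1 CPM against 46.9, 27.4 and 18.9 CPM. Rad51ap1, a gene of homologous recombination, was at 57.9, 14.5 and 30.97 CPM against 3.27, 7.46 and 4.61 CPM (-2.75 ± 0.88). Ankle1, a nuclease of blood progenitors, was at 101, 82.1 and 129 CPM against 29.6, 11.2 and 23.5 CPM (-2.28 ± 0.78). Fam120b, a coactivator gene, was at 51.2, 51.9 and 81.8 CPM against 20.5, 27.4 and 27.2 CPM, and H2-T24, 1 of a family of similar class I genes whose reads may be shared, at 31.6, 38.8 and 59.0 CPM against 3.62, 0.711 and 13.8 CPM.

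**Figure D4:**
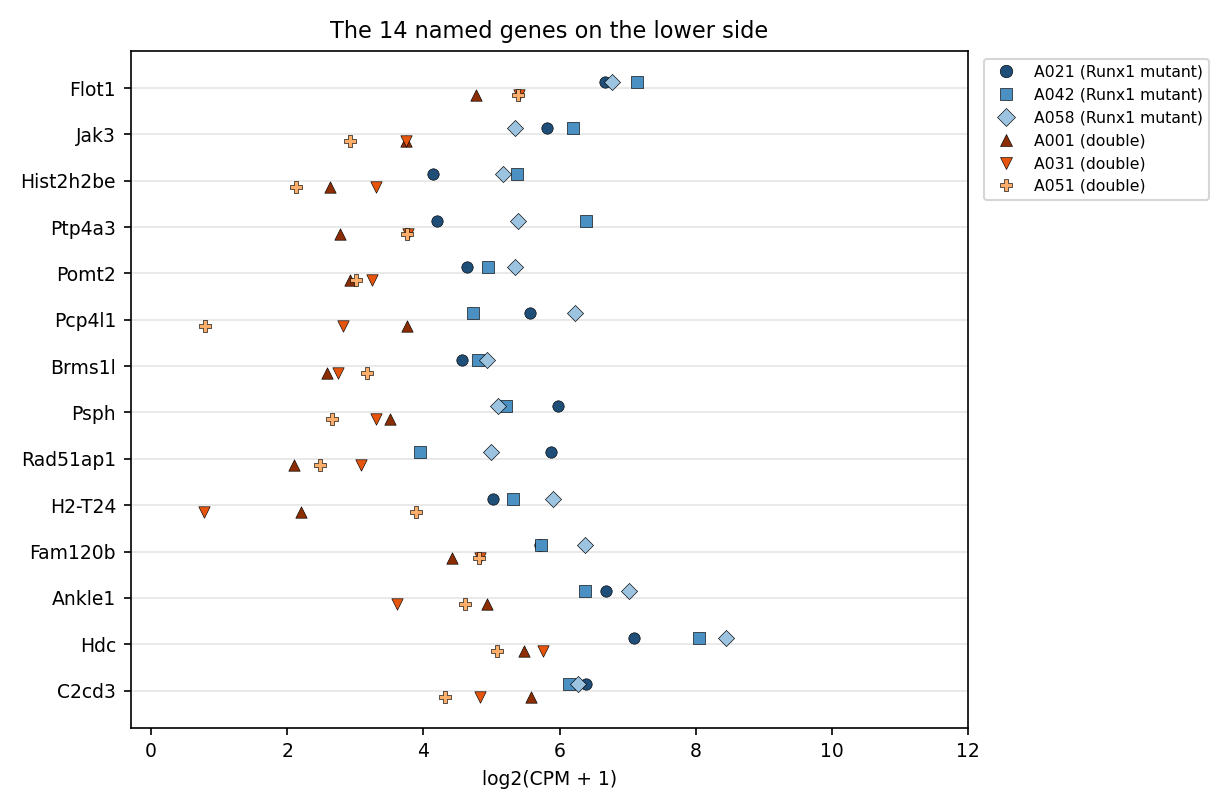
The 14 named genes on the lower side. The horizontal axis is log2(CPM + 1), each point is 1 library and no error bars are drawn. The libraries labelled double (orange to brown) lie to the left of the Runx1 mutant libraries (blue) in every gene, as the naming rule required, with Flot1 at 26.4 to 41.6 CPM against 101 to 140 CPM.

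The list of G1 cyclins, kinases and inhibitors was the 1 list whose level was lower in every library labelled double. Of 19 tested members 16 were on the lower side (median -0.27). At an unadjusted p under 0.05, 1 was lower and 1 higher (against 1.75% and 2.88% of all genes). E2f2, a transcription factor of S phase entry, was at 89.8, 29.9 and 33.2 CPM against 0.172, 5.69 and 13.6 CPM (-2.99 ± 1.06). The pocket protein gene Rbl1 was at 49.4, 59.6 and 48.6 CPM against 29.98, 34.5 and 25.9 CPM (-0.80 ± 0.47), and the CDK4 and CDK6 inhibitor Cdkn2c at 30.1, 43.4 and 21.04 CPM against 3.27, 14.7 and 17.5 CPM. Those 3 of the 19 were without overlap on the lower side, against 5.42% of all genes. Ccnd2, cyclin D2, went the other way, at 94.5, 204 and 56.1 CPM against 257, 234 and 313 CPM (1.18 ± 0.52). The list's median was -0.04 without A042. Among 34 DNA replication genes, 23 were on the lower side (median -0.29), 0 were at an unadjusted p under 0.05 in either direction, and 4 were without overlap on the lower side, against 5.42% of all genes. The list's median was -0.05 without A031. The primase Prim1 was at 97.3, 58.3 and 56.8 CPM against 44.3, 27.4 and 25.0 CPM, Gins4 of the replicative helicase at 90.7, 40.1 and 61.2 CPM against 37.0, 29.8 and 34.7 CPM, and the helicase subunit Mcm2 at 168, 93.5 and 94.6 CPM against 81.1, 68.9 and 37.1 CPM. The mitosis list went the other way, with 24 of 32 on the higher side and a median of 0.26 that was -0.05 without A001 and 0.43 without A031.

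The reported targets of miR-146a were near the level of all genes. Of 19 listed, 18 were tested, and 12 were on the higher side (median 0.23). On each side 1 was at an unadjusted p under 0.05 (against 2.88% of all genes higher and 1.75% lower). Without A031, the library with Mir146 counts, the median was -0.01. Traf6 was at 121, 85.8 and 54.1 CPM in A021, A042 and A058 and at 115, 189 and 103 CPM in A001, A031 and A051 (0.63 ± 0.45, or 0.32 without A031). Irak1 was at 183, 102 and 198 CPM against 196, 180 and 171 CPM (0.18 ± 0.40). Irak2, a kinase of the same complex, was at 10.1, 16.2 and 34.7 CPM against 2.24, 17.9 and 18.4 CPM (-0.66 ± 0.81). In these 3 genes the groups overlapped, and their 3′ UTRs held 4, 2 and 2 seed matches in that order. Relb, an NF-kB subunit, was the 1 listed target with every library labelled double above the rest (against 3.85% of all genes). It was at 1.99, 1.85 and 0.855 CPM against 5.17, 3.91 and 9.21 CPM (1.94 ± 0.92), and its 3′ UTR held 0 seed matches. Card10, a scaffold protein of NF-kB signalling, was the 1 listed target with every library labelled double below the rest (against 5.42% of all genes). It was at 2.84, 0.427 and 1.54 CPM against 0, 0.178 and 0 CPM, and its 3′ UTR held 1 match. Its lack of overlap rested on few counts, since 3 counts were worth 0.427 CPM in A042 and 0.533 CPM in A031. RNA levels do not read out repression of translation, the other way a microRNA acts.

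Down the pathway, the MyD88 and IL-1 receptor chain had 17 of 30 members on the higher side (median 0.06, or -0.07 without A031). Of the 30, 1 was at an unadjusted p under 0.05 (against 2.88% of all genes higher). That was Tifa, which carries signals to TRAF6, at 6.10, 11.1 and 5.13 CPM against 14.8, 37.1 and 41.2 CPM (2.06 ± 0.78). Of 18 Toll-like receptors and co-receptors 11 were on the higher side (median 0.75, or 0.13 without A051), 4 of them at an unadjusted p under 0.05 (against 2.88% of all genes). Tlr13, a receptor of bacterial ribosomal RNA, was at 0.284, 6.12 and 4.45 CPM against 19.6, 11.2 and 106 CPM, and the scavenger receptor Cd36 at 2.55, 0.569 and 2.57 CPM against 11.03, 20.1 and 30.1 CPM. Both were without overlap. Tlr9, a receptor of unmethylated DNA, was at 25.0 CPM in A051 and at most 1.03 CPM in the other 5. Of 40 NF-kB subunits and response genes 26 were on the higher side (median 0.30, 0.46 without A031, and from 0.10 without A001 to 0.77 without A042). Of the 40, 2 were higher and 1 lower at an unadjusted p under 0.05 (against 2.88% and 1.75% of all genes). The chemokine Ccl3 was at 0.568, 0.284 and 0.342 CPM against 8.96, 18.8 and 9.94 CPM (4.90 ± 1.69), while the inhibitor Nfkbid was at 14.3, 17.2 and 14.9 CPM against 0.344, 4.8 and 0.242 CPM (-3.08 ± 1.34), on the opposite side. Tnfrsf1b, the second TNF receptor, was at 84.1, 69.0 and 58.2 CPM against 216, 114 and 102 CPM (1.03 ± 0.39). Of 42 interferon response genes 25 were on the higher side (median 0.32, from 0.03 without A051 to 0.67 without A021). At an unadjusted p under 0.05, 2 were higher and 1 lower (against 2.88% and 1.75% of all genes). Without overlap were 2 on the higher and 2 on the lower side (against 3.85% and 5.42%). The guanylate-binding protein gene Gbp3 was at 29.2, 13.2 and 11.3 CPM against 122, 48.5 and 42.7 CPM (1.99 ± 0.64), and the antiviral gene Ifitm3 at 173, 104 and 16.6 CPM against 179, 285 and 300 CPM.

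Over all genes, a 3′ UTR was found for 11692 of 12744 tested (91.7%), and 1484 of these (12.7%) held the 7-base seed match AGTTCTC. Their median log2 fold change was 0.04, against 0.02 for the 10208 without a match. It was 0.06 for the 541 genes whose match was followed by an A and 0.12 for the 198 with 2 or more matches. These medians are descriptions, with no test. Matched genes also had longer 3′ UTRs, with a median of 2668 bases against 1024. Of the reported targets 9 of 18 held a match (50%), and of the macrophage list 2 of 25 (8%), Axl and Slco2b1.

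**Figure D5:**
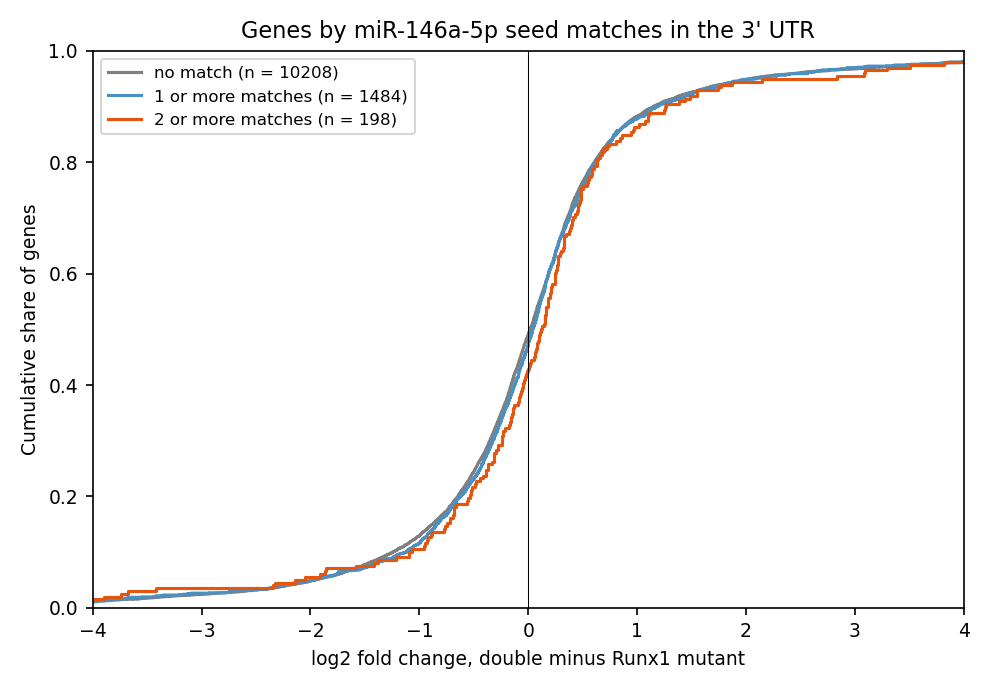
Cumulative share of genes (vertical axis) by log2 fold change, libraries labelled double minus Runx1 mutant (horizontal axis, drawn from -4 to 4). Lines are genes with no miR-146a-5p seed match in the 3′ UTR, with 1 or more and with 2 or more; the 3 lines lie close together, with medians of 0.02, 0.04 and 0.12.

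The effect of miR-146a loss differed between the Runx1 backgrounds for 3 genes (0.0235%) by edgeR's interaction test (adjusted p = 0.00202 for Cd2, 0.0257 for Dok3 and 0.0457 for Hvcn1; 1206 genes, 9.46%, at an unadjusted p under 0.05). Cd2, an adhesion molecule of T and B cells, was at 1.28, 0.996 and 3.94 CPM in the Runx1 mutants against 0.172, 0.178 and 0.242 CPM in those labelled double, and at 0, 0 and 0.142 CPM in wildtype against 95.5, 78.4 and 82.8 CPM in miR-146aKO libraries. The B lineage list had an interaction median of -4.50. At an unadjusted p under 0.05, 11 of its 22 members were lower and 0 higher (against 5.04% and 4.43% of all genes). In the comparison of the double with the Runx1 mutant genotype its median was -0.14. The plasma cell, T and NK cell and MHC class II lists had interaction medians of -3.63, -3.77 and -3.49 against -0.79, -1.23 and 0.22 in that comparison. The medians in that comparison rested on single libraries: without A058 they were 2.61 for the B lineage and 3.88 for the plasma cell list, and without A031 they were 0.06 for the B lineage, -2.39 for the T and NK cell and -0.14 for the MHC class II list. The T and NK cell list was uneven within the miR-146aKO libraries, at a mean log2 CPM of 6.34 in A047, 3.44 in A150 and 2.56 in A151. In the wildtype libraries A015, A040 and A053 it was at 1.43, 1.54 and 1.21. Only the 6 libraries compared were left out in turn, so the weight of single miR-146aKO or wildtype libraries in the interaction was not tested. Y-linked RNA also followed genotype on the intact background, at 0.547, 32 and 7.55 CPM in wildtype and 241, 158 and 99.3 CPM in miR-146aKO libraries, and with it as a covariate the Dok3 and Hvcn1 interactions no longer passed (edgeR adjusted p = 0.302 and 0.347) while Cd2 did (0.0124).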

How the data were processed

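RNA-seq was done on 12 libraries of sorted GFP-positive LSK cells, 3 for each of 4 genotypes, amplified and unstranded per the labels' protocols. The deposited values are raw gene counts; FastQC 0.11.2, HISAT2 2.0.4, featureCounts 1.5.2 and build mm10 are named in the submitters' processing notes. Columns could be tied to a genotype but not to a replicate number. All 12 libraries were fitted in edgeR 4.0.16 (quasi-likelihood, TMM scaling, default low-count filter, R 4.3.3), with Benjamini-Hochberg adjustment over all tested genes and a threshold of 0.05. A fold change is double minus Runx1 mutant and its SE is the fold change divided by the root of F. CPM were TMM-scaled, and list levels used a prior count of 2. Genes named were the 14 of smallest unadjusted p in each direction without overlap and with a mean log2 CPM of at least 3, 4 per list, and further list members chosen after their values were seen. The members and lists were chosen with earlier results of these data known. Alternatives were DESeq2 1.42.0, limma-voom (limma 3.58.1), other filters and scaling, a 6-library fit, a Y-linked covariate and left-out libraries. The edgeR step was tested on simulated data. In the 6 libraries compared, 3 counts were worth 0.426 to 0.727 CPM. Some genes are not reported here.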

Additional observations from a re-analysis of the deposited data

Results flagged for a closer look

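The effect of miR-146a loss differed between the Runx1 mutant and the intact background for Cd2, Dok3 and Hvcn1, by edgeR's interaction term with Benjamini-Hochberg adjustment. The fitted interaction was -13.41 ± 1.40 on the log2 scale for Cd2, a value that depends on the fit and is no measure of size, since Cd2 had 1 count over the wildtype libraries and 1 in each library labelled double. It was -6.08 ± 0.84 for Dok3, an adaptor of myeloid and B cell receptors, which was at 117, 28.3 and 62.4 CPM in the Runx1 mutant libraries and 20.2, 24.7 and 32.7 CPM in those labelled double, against 1.92, 4.0 and 3.99 CPM in wildtype and 98.9, 69.4 and 82.5 CPM in miR-146aKO libraries. It was -4.07 ± 0.61 for Hvcn1, a proton channel of B cells and phagocytes whose exons overlap Tctn1, at 72.5, 75.7 and 57.8 CPM and 79.1, 35.4 and 59.4 CPM in the mutant pair, against 10.4, 18.7 and 14.8 CPM in wildtype and 143, 259 and 222 CPM in miR-146aKO libraries. Cd2 passed the threshold with each of the 6 libraries left out in turn (-13.73 to -12.57), Dok3 only without A042 (-6.46 to -5.47) and Hvcn1 in none (-4.37 to -3.82). With limma-voom the adjusted p was 0.0723 for Cd2, 0.186 for Dok3 and 0.0723 for Hvcn1. With Y-linked RNA as a covariate the edgeR adjusted p was 0.0124 for Cd2, 0.302 for Dok3 and 0.347 for Hvcn1.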

How the results depend on the processing

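No paired analysis was possible because the columns carry no replicate number. Without the low-count filter edgeR called 129 genes higher and 15 lower (667 and 351 at an unadjusted p under 0.05) and 268 interactions. That fit took in 19210 genes and drew each gene's spread more strongly toward the common trend (prior degrees of freedom 88.6 against 6.07). DESeq2 called 71 higher, 8 lower and 166 interactions, and limma-voom 0 interactions. The 6-library fit had 138 genes lower at an unadjusted p under 0.05. Without both A031 and A042, chosen after seeing the data, 473 were lower and 6 interactions were called. With single libraries left out, 285 to 502 genes were higher and 166 to 678 lower at an unadjusted p under 0.05 (678 without A031), 1 to 6 interactions were called, and 0 genes were called either way. The cause was not tested. Fold changes that took the other sign were 0.19 for Kit with limma-voom and -1.25 for Cdh5 with the Y-linked covariate. Without both A031 and A042 they were -0.29 for Cxcl12, -3.01 for Lepr, 0.18 for Pecam1, -0.053 for Irak1, 0.68 for Kit and 0.087 for Hvcn1. Over single left-out libraries, fold changes ran from -0.31 to 6.09 for Bgn, -1.78 to 0.63 for Cd34, -2.08 to 3.36 for Cdh5, -6.29 to 0.68 for Cpa3, -0.98 to 9.21 for Cxcl12, -0.54 to 0.012 for Hvcn1, -8.09 to 0.47 for Il1rl1, -0.063 to 0.35 for Irak1, -1.17 to 0.81 for Kit, -2.98 to 8.50 for Lepr, -5.70 to 3.45 for Mecom, -1.14 to 0.20 for Pecam1, -6.0 to 3.19 for Procr, -6.17 to 0.82 for Slamf1 and -0.20 to 3.22 for Timd4. Genes at 0 to 3 counts in a group are not resolved at this depth.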
